A study of Homo sapiens with 74 samples.

Results

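The bins described here are 824 stretches of the human genome that almost never touched the nuclear lamina in single cells. They were chosen from 27345 autosomal bins of the hg38 build, and they make up 3.01% of these bins and 82.4 Mb. Each is 100 kb long except chr9:138300001-138394717, which is shorter. Contact was scored in each of 51 cells that carried Dam fused to lamin B1 (LMNB1): a cell contacted a bin when its share of fragments in the bin was at least 1.0 times the share of that bin in 2 bulk libraries of untethered DamV133A. A bin was kept when the untethered libraries together covered it at least 1000 times, and it was chosen when at most 2 of the 51 cells contacted it. No cell contacted 58 of the chosen bins, 1 cell contacted 241 and 2 cells contacted 525. Just outside the threshold, 764 bins were contacted in 3 cells and 962 in 4. The single-cell counts and the bulk DamV133A libraries chose these bins, so their low values in those data are a description and carry no test.

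The lamina is a protein mesh under the nuclear envelope, and the chromatin that rests on it, the lamina-associated domains (LADs), is mostly poor in genes and silent. The remaining inter-LAD chromatin (iLAD) lies further inside the nucleus. DamID reads these contacts with the bacterial methyltransferase Dam, which methylates the adenine of GATC wherever it comes close to DNA. DpnI then cuts only methylated GATC, and the cut fragments are amplified and sequenced. Untethered Dam marks accessible chromatin throughout the nucleus and serves as the control.

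The series measured 74 samples of HEK293T, a line from human embryonic kidney. The single cells were 15 LMNB1 cells and 3 Dam-only cells of batch 1 and 36 LMNB1 cells of batch 2, the last carrying DamV133A-tdTomato-LMNB1 with m6A-Tracer-NES, a fluorescent reader of adenine methylation. The bulk DamID libraries were 2 each of DamV133A and DamV133A-LMNB1, and, in a separate comparison of Dam variants, 2 each of DamWT, DamWT-LMNB1, DamV133A and DamV133A-LMNB1, where V133A is a point mutant of the enzyme. RNA was sequenced in 2 libraries each of untreated cells, cells with m6A-Tracer, cells with DamV133A and cells with DamV133A-LMNB1. The labels give 1 treatment text for all samples, including those named untreated: transient transfection with FuGene HD and 1 mM Shield-1, a ligand that stabilises a destabilised fusion protein, for 20 hours. Transient transfection leaves cells with unequal amounts of the construct, so a bulk library averages over them. Nothing in the labels ties bulk replicates to separate cultures, so p-values measure the spread between these libraries, which may be technical. The HEK293T markers VIM, NEFM, CDH2, KRT18, KRT8 and PAX2 had mean RNA levels of 778, 236, 125, 63.5, 19.6 and 4.98 CPM (counts scaled to equal library totals) in untreated cells, whereas PTPRC, CD3E, ALB, HBB and DCN were each at 0.809 CPM or lower and COL1A1 was at 28.8.

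Dam sees only GATC, so the promoters of the genes with the highest RNA counts in the 4 longest runs of chosen bins are shown with every GATC in capitals. Each sequence is from RefSeq (GRCh38.p14), reads 5′ to 3′ on the strand of the gene, and spans 250 bases before to 50 bases after the annotated start. RCC1 encodes the chromatin-bound exchange factor of the GTPase Ran, SRP9 a subunit of the signal recognition particle, CBX1 the heterochromatin protein HP1 beta, and PSMB4 a subunit of the proteasome core.
RCC1, chr1:28505793-28506092, plus strand: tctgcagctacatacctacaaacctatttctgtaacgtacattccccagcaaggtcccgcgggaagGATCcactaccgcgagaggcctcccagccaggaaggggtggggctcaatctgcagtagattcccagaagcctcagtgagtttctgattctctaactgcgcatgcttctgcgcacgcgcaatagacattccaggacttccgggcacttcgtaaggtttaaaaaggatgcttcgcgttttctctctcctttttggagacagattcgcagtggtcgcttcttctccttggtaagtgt
SRP9, chr1:225777576-225777875, plus strand: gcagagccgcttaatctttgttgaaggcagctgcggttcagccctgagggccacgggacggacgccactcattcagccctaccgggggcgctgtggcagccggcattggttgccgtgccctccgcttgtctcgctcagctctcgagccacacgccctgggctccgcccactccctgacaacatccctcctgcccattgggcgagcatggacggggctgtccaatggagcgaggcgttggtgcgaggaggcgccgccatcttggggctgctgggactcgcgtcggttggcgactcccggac
CBX1, chr17:48101137-48101436, minus strand: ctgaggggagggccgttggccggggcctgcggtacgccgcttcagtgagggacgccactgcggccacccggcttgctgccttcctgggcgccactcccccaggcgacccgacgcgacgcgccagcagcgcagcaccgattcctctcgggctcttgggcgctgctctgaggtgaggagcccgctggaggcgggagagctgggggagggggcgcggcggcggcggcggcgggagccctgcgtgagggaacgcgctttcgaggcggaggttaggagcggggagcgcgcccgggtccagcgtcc
PSMB4, chr1:151399323-151399622, plus strand: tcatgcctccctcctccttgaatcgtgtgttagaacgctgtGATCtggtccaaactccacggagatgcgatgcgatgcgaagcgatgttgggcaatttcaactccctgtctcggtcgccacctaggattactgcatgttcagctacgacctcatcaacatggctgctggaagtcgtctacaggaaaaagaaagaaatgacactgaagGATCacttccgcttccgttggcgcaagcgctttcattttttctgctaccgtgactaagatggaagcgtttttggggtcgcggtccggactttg
The PSMB4 promoter held 2 GATC sites, that of RCC1 held 1, and those of SRP9 and CBX1 held 0. A promoter in the table was found for 1123 of the 1393 protein-coding genes in the chosen bins, and GATC, which reads the same on both strands, occurred in 41.5% of them, against 39.5% of all 15101 placed promoters. The GC box GGGCGG, counted on either strand and independently of the other motifs, occurred in 64.4% of the promoters of the chosen bins, 65.6% of those in bins contacted in 3 to 10 cells and 58.9% of all. The core CCGGAAG, which ETS factors bind, occurred in 19.0%, 16.3% and 14.4% of the same sets. TATAAA occurred in 7.03%, 7.41% and 9.71% of these sets, and in 28.0% of the 93 promoters in bins contacted in 41 or more cells. Median GC content was 63.0% in the chosen bins, 63.0% over all promoters and 41.3% in the bins with most contact. These are counts of letters in a 300-base window and say nothing of factor binding.

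The chosen bins sit at the low end of a broad distribution of contact. Of the bins kept, 7668 were contacted in 3 to 10 cells, 18071 in 11 to 40 and 782 in 41 or more. The chosen bins were more frequent among well covered bins. A median cell was expected to give 1.90 fragments in a bin of the lowest quintile of bulk coverage and 5.84 in a bin of the top quintile. The top quintile held 557 of the 824 chosen bins, where they were 10.2% of the bins, against 0.494% in the lowest quintile. Over all bins kept, the LMNB1 ratio of observed to expected fragments was 1.77 in the lowest quintile and 0.518 in the top one, and the median number of contacting cells was 28.0 and 8.00. The parts of coverage and of contact in the choice of bins cannot be told apart here. Median summed coverage in the untethered bulk libraries was 54926 for the chosen bins and 41586 for those contacted in 3 to 10 cells. The chosen bins also held more GATC sites, with a median of 288 per bin (78.0 to 407) against 269 in bins contacted in 3 to 10 cells and 230 in those contacted in 41 or more.

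**Figure D1:**
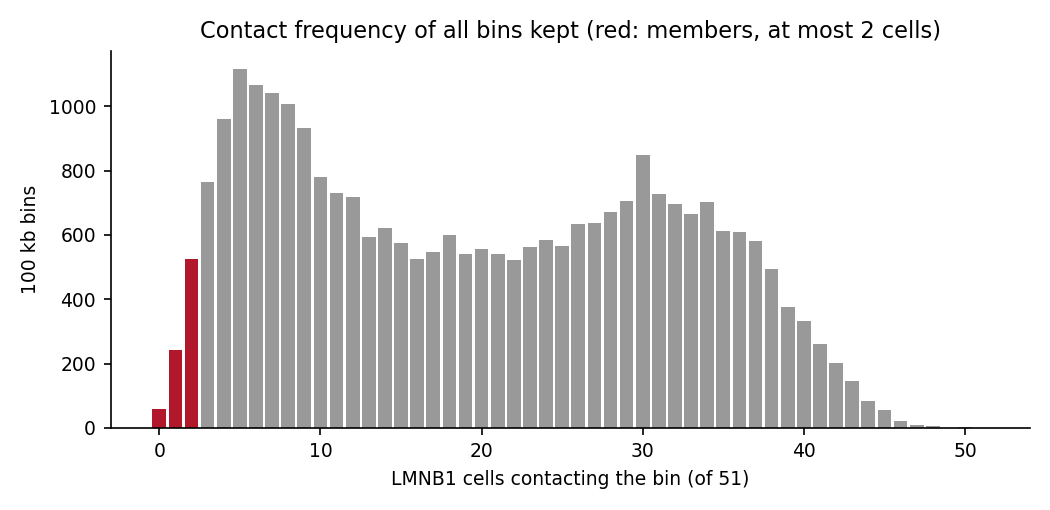
Number of 100 kb bins (y axis) by the number of LMNB1 cells, of 51, that contacted them (x axis). Red bars are the 824 chosen bins (58, 241 and 525 bins at 0, 1 and 2 cells) and grey bars all other bins kept.

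The LMNB1 cells left few fragments in these bins, and the Dam-only cells did not share that low level. Observed fragments over the chosen bins, divided by those expected from untethered bulk DamV133A, ranged from 0.0863 to 0.719 with a median of 0.180 in the 15 LMNB1 cells of batch 1. In the 36 cells of batch 2 the ratio ranged from 0.0675 to 0.595 with a median of 0.249. The 3 Dam-only cells, which the rule did not use, gave 1.05, 1.32 and 1.45, so the lowest Dam-only cell lay above the highest LMNB1 cell. By the same score the Dam-only cells contacted 45.3%, 50.4% and 56.9% of the chosen bins and 42.1%, 36.6% and 35.5% of all bins, in the same order of cells. Bins contacted in 3 to 10 LMNB1 cells were close to the chosen bins here. The median ratio per bin, summed over the Dam-only cells, was 1.11 in the chosen bins and 1.08 in that class. All 3 Dam-only cells contacted 17.1% of the chosen bins, 14.9% of that class and 8.28% of all bins. The 3 Dam-only cells came from batch 1 and from 1 group, and no test was made on them. The lowest ratio, 0.0675, was that of well B08 of batch 2, with 178524 fragments, and the shallowest cell, with 9526, had 0.180. The share of chosen bins with no fragment at all ranged from 2.79% to 19.2% in the Dam-only cells, from 2.91% to 95.5% in LMNB1 cells of batch 1 and from 14.6% to 65.0% in those of batch 2.

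**Figure D2:**
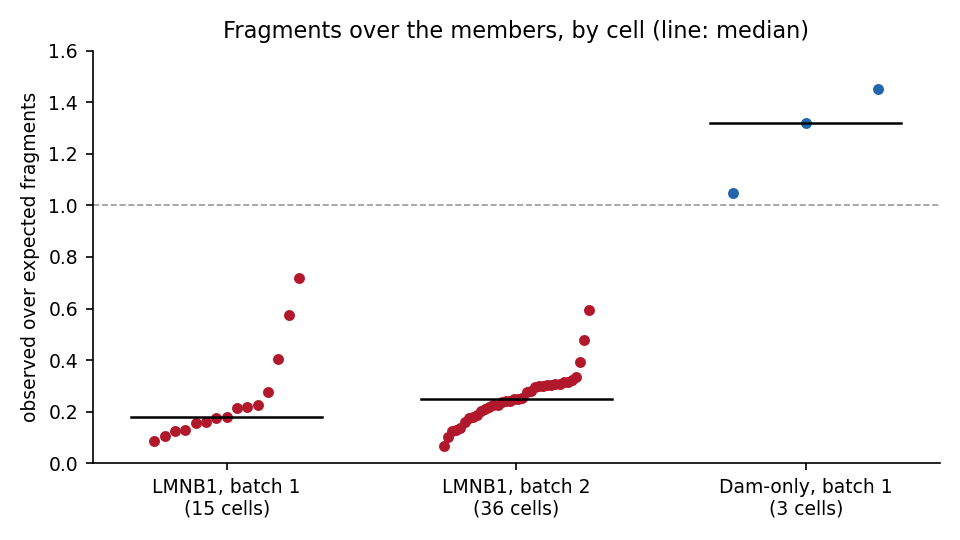
Observed over expected fragments in the chosen bins (y axis) for each single cell (1 point), by group, with a line at the group's median and a dashed line at 1. All 51 LMNB1 cells lie at 0.719 or lower and the 3 Dam-only cells at 1.05 or higher.

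The few contacts that did occur were concentrated in few cells. Of 1291 contacts of a cell with a chosen bin, 43.4% came from 5 cells. These were well D09 of batch 2 with 157 contacts, cells 7, 12 and 10 of batch 1 with 152, 132 and 62, and well D10 of batch 2 with 57. Their depths ran from 29323 fragments (D09) to 348793 (cell 7), the deepest cell of all. Wells B03 and B08 of batch 2, with 180292 and 178524 fragments, contacted 0 chosen bins. By batch, 1361 bins that no cell of batch 1 contacted were contacted on average in 13.9% of the 36 cells of batch 2. The other bins were contacted in 41.5%. Of 1057 bins contacted in at most 1 cell of batch 2, the average contact in the 15 cells of batch 1 was 10.3%, against 36.5% for the others. Of these 2 sets, 366 and 643 bins were chosen bins. The cells are those of the rule, and both expected profiles rest on the same bulk libraries. High untethered coverage of a bin thus lowers its ratio in both batches, so these values are descriptions and carry no test.

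In the bulk DamV133A libraries the chosen bins held 4.64% and 4.79% of the counts, and in the bulk DamV133A-LMNB1 libraries 2.01% and 2.05%. The authors' deposited table gives a median log2 fold change of -0.94 for the fusion over untethered Dam in these bins (-3.34 to 0.34), against -0.85 for bins contacted in 3 to 10 cells and 1.47 for bins contacted in 41 or more. The same deposited table marks 1200 bins as control iLAD, of which 205 were chosen bins, and 1185 as control LAD, of which 0 were. The untethered libraries of this contrast entered the rule, so these values are descriptions.

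The chosen bins were spread unevenly over the chromosomes. On chromosome 22 they were 63 of 377 bins (16.7%), on chromosome 17 64 of 800 (8.00%), on chromosome 1 151 of 2476 (6.10%) and on chromosome 20 39 of 641 (6.08%). At the other end stood chromosome 4 with 9 bins (0.478%), chromosome 13 with 4 (0.447%) and chromosome 18 with 7 (0.937%). Chromosome 19, the most gene-dense chromosome, held 13 (2.33%), below the 3.01% of all bins, although its bins were contacted in a median of 8.00 cells. Chromosome 22 had the lowest median, 6.00 cells, and 0 bins contacted in 41 or more cells. Its median coverage of 37651 was below that of chromosome 1 at 42813 and above that of chromosome 19 at 33424.

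**Figure D3:**
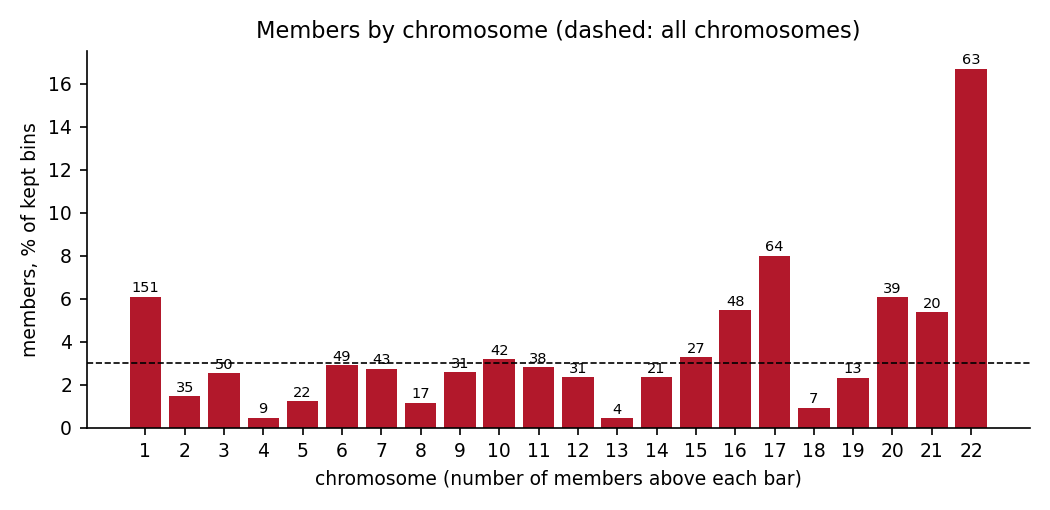
Chosen bins as a percentage of the bins kept (y axis) on each autosome (x axis), with the number of chosen bins above each bar and a dashed line at 3.01%, the share over all autosomes. Chromosome 22 reaches 16.7% and chromosome 13 0.447%.

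Most chosen bins stood alone inside a wider region of low contact. They formed 668 runs of adjacent bins, 551 of them a single bin, and the longest run held 10 bins. Of 1244 bins next to a run, 88.3% were contacted in 3 to 10 cells, 11.7% in 11 to 40 cells and 0.0804% in 41 or more, with a median of 6.00 cells. On chromosomes with bins contacted in 41 or more cells, the nearest such bin was a median of 9.20 Mb away (0.100 to 73.9).

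The longest run, chr1:28300001-29300000, held 14 protein-coding genes and was contacted 16 times over its 10 bins. Its genes with the highest CPM were RCC1, SRSF4 (a splicing factor of the SR family), EPB41 (a membrane skeleton protein) and PTPRU (a receptor tyrosine phosphatase), at 291 to 293, 263 to 272, 190 to 197 and 185 to 189 CPM in the 2 untreated libraries. The run chr1:225400001-225900000 held LBR, the lamin B receptor that anchors heterochromatin to the nuclear envelope, at 359 and 367 CPM, beside SRP9 (457 in both), the actin regulator ENAH (415 and 430) and the epoxide hydrolase EPHX1 (66.5 and 65.8). CBX1 at 197 and 200 CPM and the transcription factor NFE2L1 at 168 in both lay in the run chr17:48000001-48500000, with SNX11, a sorting nexin, at 25.0 and 23.5 and COPZ2, a coatomer subunit, at 0.0667 and 0.524.

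The 3 other runs named here held 4 bins each. The run chr1:151100001-151500000 was the richest in genes, with 15, among them PSMB4 at 276 and 272 CPM, the proteasome cap subunit PSMD4 at 214 and 218, and the lipid kinases PIP5K1A at 201 and 195 and PI4KB at 119 and 124. The run chr1:226000001-226400000 held PARP1, a poly(ADP-ribose) polymerase that acts in DNA repair, at 1607 and 1620 CPM, the variant histone gene H3-3A at 733 and 743, the Golgi protein gene ACBD3 at 131 and 134 and LIN9, a subunit of the MuvB complex, at 52.1 and 51.2. The run chr6:15100001-15500000 held a single gene, JARID2, which encodes an accessory subunit of Polycomb repressive complex PRC2, at 67.8 and 63.9 CPM. The long runs included both a dense gene cluster and a stretch with 1 long gene.

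The comparison of Dam variants tested the same fusion in 8 libraries that did not enter the rule. With DamV133A, counts of the fusion fell in 651 of the 820 chosen bins that passed the low-count filter (79.4%), at a Benjamini-Hochberg adjusted p under 0.05 in the quasi-likelihood test of edgeR, against 23.7% of all 28733 bins tested on chromosomes 1 to 22 and X. None rose, against 27.0% of all bins. At an unadjusted p under 0.05, 710 were lower and 0 higher, while 16767 of all 28733 bins passed in either direction. DESeq2 called 705 of 824 chosen bins lower and 0 higher, against 8210 lower and 9197 higher of all 29106 bins. The median log2 fold change was -1.95 in the chosen bins, -1.64 in bins contacted in 3 to 10 cells and -0.10 over all bins, and 817 of the 820 values were below 0. In 995 tested bins flagged control iLAD in the authors' deposited table but not chosen here, the median was -1.97 and 71.5% were called lower. With library totals in place of TMM scaling, the median over all bins moved to -0.50 and that over the chosen bins to -2.34. The number of calls was 404 without DamV133A library 1 and 426 without library 2, against 643 and 627 without DamV133A-LMNB1 library 1 or 2. In each of these fits 1 group rests on a lone library, which is assumed to vary like the other groups. The 4 chosen bins not tested had too few counts.

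The share called lower also moved with coverage, and the part of coverage in it was not tested beyond a split. Within the top quintile of coverage, the fusion was called lower in 84.7% of 557 chosen bins, in 63.4% of 2703 bins contacted in 3 to 10 cells and in 39.1% of all 4912 other bins, with medians of -1.93, -1.46 and -0.78. By number of contacting cells, the share called lower was 84.5% at 0 cells, 81.6% at 1, 77.8% at 2, 72.6% at 3, 55.5% at 7 and 37.1% at 10. Adjacent classes on either side of the threshold thus lay close together, with medians of -1.96 at 2 cells and -1.85 at 3. Chromosome 22 had the largest share among chromosomes with at least 20 chosen bins tested, 57 of 63 (90.5%), and chromosome 2 the smallest, 23 of 35 (65.7%).

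With wild-type Dam, which had no part in the rule, the same contrast was smaller. The fusion was called lower in 1 of the 820 chosen bins (0.122%, background 0.212%) and higher in 0 (background 2.42%). At an unadjusted p under 0.05, 145 were lower and 1 higher, while 5970 of all 28733 bins passed in either direction. DESeq2 called 80 of 824 chosen bins lower and 1 higher, against 930 lower and 3061 higher of all 29106 bins. The median log2 fold change was -0.61 against -0.01 over all bins, and 730 of the 820 values were below 0. Leaving out DamWT-LMNB1 library 2 gave more calls, over all bins as well as in the chosen bins, with a median of -0.58 in the latter. Without any 1 of the other 3 wild-type libraries almost all calls were lost, again over all bins too. The medians in the chosen bins were then -0.60 without DamWT library 1 or 2 and -0.67 without DamWT-LMNB1 library 1.

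Per library, the density of counts in the chosen bins over that in the other bins kept was 1.23 and 1.25 with DamV133A and 0.273 and 0.261 with DamV133A-LMNB1. With DamWT it was 1.05 and 1.04, and with DamWT-LMNB1 0.631 and 0.608. On the log2 scale the means were 0.310 ± 0.0113 and -1.91 ± 0.0424 for DamV133A without and with LMNB1, and 0.0614 ± 0.00707 and -0.692 ± 0.0375 for DamWT (SD, n = 2 each). The fusion density was therefore 4.66-fold lower than untethered with DamV133A and 1.69-fold lower with DamWT, and in both variants the 2 fusion libraries lay below the 2 untethered ones. An exact two-sided permutation test of 2 against 2 libraries cannot go below p = 0.333, so none is given for these densities.

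**Figure D4:**
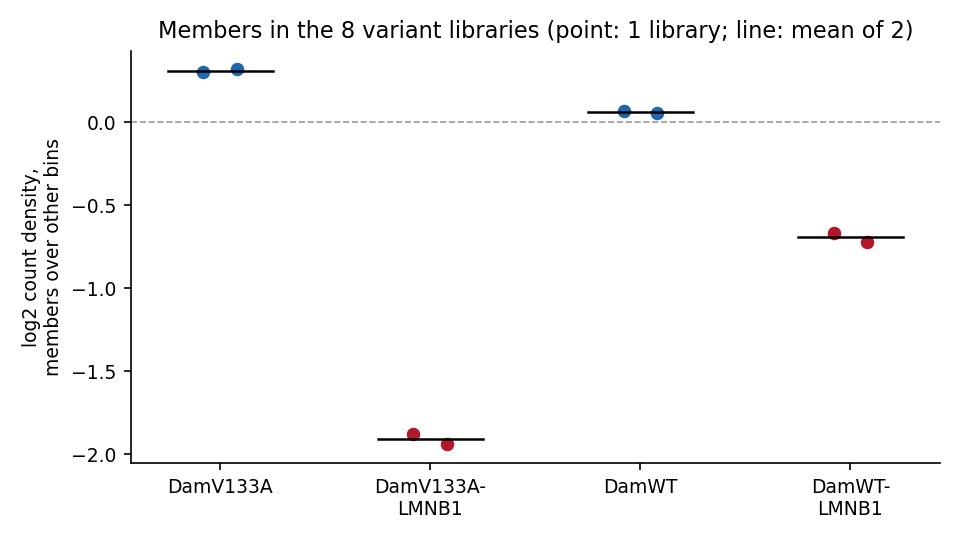
Log2 of the count density in the chosen bins over that in the other bins kept (y axis) for each of the 8 libraries of the Dam variant comparison (points, line at the mean of 2). DamV133A-LMNB1 lies at -1.88 and -1.94, DamWT-LMNB1 at -0.665 and -0.718, and the untethered libraries between 0.0564 and 0.318.

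The difference between the variants was tested directly as an interaction. It was lower for DamV133A in 13 of the 820 chosen bins (1.59%, background 0.358%) and higher in 0 (background 0.136%). At an unadjusted p under 0.05, 334 were lower and 0 higher, while 6199 of all 28733 bins passed in either direction. DESeq2 called 229 of 824 chosen bins lower and 0 higher, against 1884 lower and 2450 higher of all 29106 bins. The median interaction was -1.33 on the log2 scale against -0.02 over all bins, and 766 of 820 values were below 0. In bins contacted in 3 to 10 cells it was -1.05, and 1.02% were called lower. The rule took its expected profile from untethered DamV133A and used no wild-type Dam. How far this choice of bins favours a larger drop with DamV133A was not tested. The number of chosen bins called depended on single libraries.

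The 3 chosen bins with the smallest adjusted p for DamV133A were all lower. The bin chr20:38000001-38100000 holds RPRD1B, a regulator of RNA polymerase II, and TTI1, a chaperone partner of PI3K-related kinases. Its scaled counts were 50.3 and 58.4 CPM with DamV133A and 2.39 and 1.21 with the fusion, and the fold change was -4.89 ± 0.53 on the log2 scale (SE, edgeR adjusted p = 6.45e-05). With wild-type Dam it had 33.7 and 30.0 CPM untethered and 19.0 and 23.0 with the fusion (-0.60 ± 0.44, edgeR adjusted p = 0.453). All 4 fusion values lay below all 4 untethered ones, but the wild-type pair stayed close.

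The bin chr1:31000001-31100000, with no protein-coding gene centred in it, was also the best covered of the 58 bins that no cell contacted. It had 83.4 and 72.2 CPM with DamV133A, 12.1 and 14.4 with DamV133A-LMNB1, 52.3 and 57.0 with DamWT and 58.9 and 51.7 with DamWT-LMNB1. The DamV133A groups were far apart (-2.55 ± 0.30, edgeR adjusted p = 9.14e-05), whereas the wild-type groups overlapped (0.02 ± 0.28, adjusted p = 0.978). The 3 Dam-only cells left 23, 14 and 28 fragments there, and the 51 LMNB1 cells together 156. The third bin, chr7:151600001-151700000, likewise without a gene centred in it, had 79.3 and 76.0 CPM with DamV133A and 15.1 and 8.86 with its fusion (-2.69 ± 0.34, edgeR adjusted p = 0.000114).

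The single chosen bin that passed the test with wild-type Dam was chr1:150000001-150100000, which holds the deubiquitinase gene OTUD7B. It fell from 69.5 and 77.8 CPM to 16.6 and 32.4 with wild-type Dam (-1.60 ± 0.37, edgeR adjusted p = 0.0418), and from 63.2 and 55.4 to 10.3 and 8.46 with DamV133A (-2.66 ± 0.39). Both variants thus separated their groups there. The wild-type call was lost under 5 alternatives. Among them were library totals alone and leaving out DamWT library 1, DamWT library 2 or DamWT-LMNB1 library 1.

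Of the other 4 best covered bins without a contacting cell, chr1:226100001-226200000 (ACBD3), chr1:229500001-229600000 (the mitochondrial transporter gene ABCB10), chr3:48700001-48800000 (IP6K2, an inositol kinase, and PRKAR2A, a regulatory subunit of protein kinase A) and chr3:15000001-15100000 (the mitochondrial ribosomal gene MRPS25 and the endosomal gene RBSN) had DamV133A fold changes of -1.85, -1.60, -2.09 and -1.73. All 4 passed the test with DamV133A and none with wild-type Dam (adjusted p from 0.191 to 0.452). In chr1:229500001-229600000, Dam-only cell 16 alone gave 66 of the 76 Dam-only fragments, and the DamV133A call was lost without DamV133A library 1 or 2 or without DamV133A-LMNB1 library 2 (adjusted p = 0.0628, 0.0560 and 0.0678). In chr3:48700001-48800000 it was lost without DamV133A library 2 (adjusted p = 0.0978).

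The chosen bins were dense in genes. By the midpoint of their span, 1393 protein-coding genes fell in them, or 16.9 per Mb, against 13.5 in bins contacted in 3 to 10 cells, 3.92 in 11 to 40 cells, 1.45 in 41 or more and 6.92 over all bins. No gene was centred in 158 of the 824 chosen bins (19.2%), against 31.7%, 71.9%, 90.2% and 59.5% in the same other sets. Within the top quintile of coverage the density was 17.0 genes per Mb in the chosen bins, 12.6 in those contacted in 3 to 10 cells and 9.10 in all other bins.

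RNA, which the rule did not use, was found for 1351 of these genes. In the 2 untreated libraries 83.8% and 83.4% of them reached 1 CPM, against 75.1% and 75.2% in bins contacted in 3 to 10 cells, 54.8% and 54.7% in 11 to 40 cells and 17.7% and 16.8% of 113 genes in bins contacted in 41 or more. The other 6 RNA libraries gave 83.9% to 84.9% for the chosen bins. Among genes at 1 CPM or more, the median level in untreated cells was 51.6 CPM in both libraries for the chosen bins. It was 39.2 and 38.8 in bins contacted in 3 to 10 cells and 33.6 and 33.9 over all bins. Within the top quintile of coverage, 86.9% of genes in the chosen bins reached 1 CPM in the untreated mean. That share was 85.2% in bins contacted in 3 to 10 cells and 82.4% in all other bins, so the contrast was smaller there. The median levels in this quintile were 58.1, 50.2 and 46.3 CPM in the same order. Levels are not divided by transcript length, so the order of single genes by CPM served only to choose those named.

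**Figure D5:**
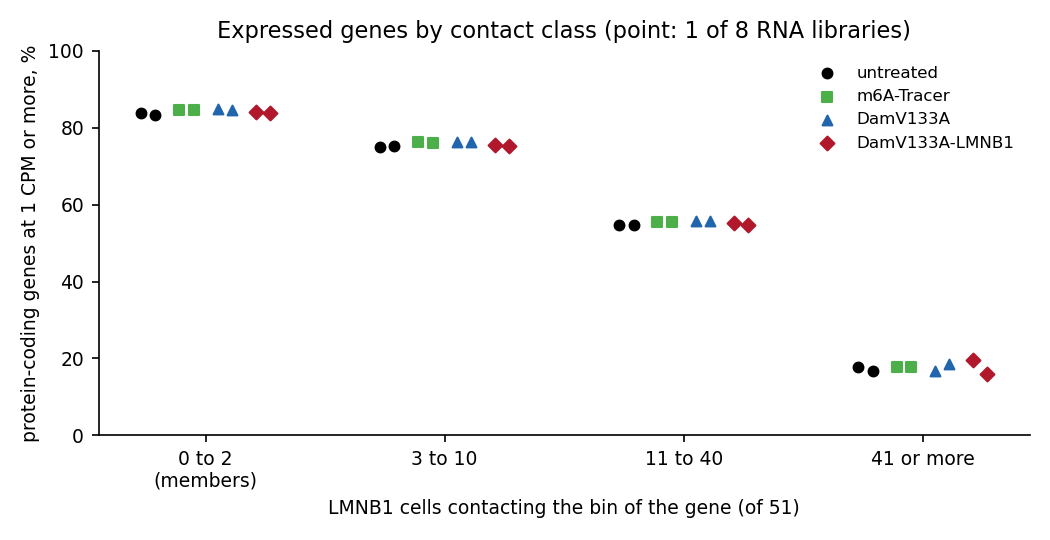
Percentage of protein-coding genes at 1 CPM or more (y axis) by the number of LMNB1 cells that contacted the bin of the gene (x axis), for each of the 8 RNA libraries (1 point each, coloured by group). The chosen bins lie between 83.4% and 84.9% in every library, and the bins contacted in 41 or more cells between 15.9% and 19.5%.

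Not every chosen bin held an expressed gene. At least 1 gene at 1 CPM or more in untreated cells was centred in 622 chosen bins, genes below 1 CPM only in 44, and no gene in 158. With DamV133A the fusion was called lower in 82.3%, 60.5% and 73.1% of the tested bins of these 3 kinds, with medians of -1.99, -1.66 and -1.83. Their median coverage was 55999, 45720 and 51990.

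The 10 genes of the chosen bins with the highest CPM in untreated cells included RPS2 (3519 and 3423 CPM), RPS6 (2422 and 2404) and RPLP0 (1969 and 1946), which encode ribosomal proteins, the glycolytic enzyme gene ENO1 (3337 and 3283), and HNRNPA1 (2631 and 2663) and HNRNPA2B1 (1830 and 1866), which encode RNA-binding proteins. The others were the nucleolar protein genes NPM1 (2550 and 2580) and NCL (1586 and 1604), the chaperone gene HSP90AA1 (2178 and 2188) and PARP1. RPS2, HNRNPA1, NPM1 and other genes of this group have many processed copies in the genome, and their levels are uncertain to the extent that reads were shared with these.

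Gene families differed in how many members they had in these bins. Of all placed genes 7.36% lay in them, and of 47 proteasome genes 14 did (29.8%), spread over 12 bins. The proteasome is the complex that degrades ubiquitinated proteins, and the genes were of its core (PSMA3, PSMA4, PSMB1, PSMB2, PSMB4, PSMB5, PSMB8, PSMB9, PSMB11) and its cap (PSMC3, PSMC6, PSMD4, PSMD6, PSMD12). In untreated cells 11 of them reached 1 CPM. The fusion was called lower with DamV133A in all 12 bins, with values from -1.25 in the bin of PSMA3 to -3.65 in that of PSMB8 and PSMB9. Of all chosen bins tested 79.4% were called lower, so most bins of any such set would be. With wild-type Dam 0 of the 12 passed the test, against 0.122% of all chosen bins. The shares were smaller in other families of basic functions, with 5 of 26 Mediator genes (19.2%), 7 of 47 splicing genes (14.9%), 8 of 81 cytosolic ribosomal protein genes (9.88%) and 6 of 77 mitochondrial ribosomal protein genes (7.79%).

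Clustered families entered as blocks that share a bin, so their genes are not separate observations. Of 73 replication-dependent histone genes, which supply histones during DNA replication, 30 lay in 4 chosen bins, 11, 12 and 5 of them in 3 bins of the chromosome 6 cluster and 2 in chr1:228400001-228500000. The bins of 11 genes (chr6:26100001-26200000) and 5 genes (chr6:27100001-27200000) fell with DamV133A (-2.11 ± 0.43 and -1.68 ± 0.45, edgeR adjusted p = 0.00144 and 0.00738), as did the bin on chromosome 1 (-3.25 ± 0.61, edgeR adjusted p = 0.00088). The bin of 12 genes, chr6:26200001-26300000, had 47.3 and 54.7 CPM untethered and 31.9 and 30.5 with the fusion and did not pass the test (-0.71 ± 0.37, edgeR adjusted p = 0.121). Most histone mRNAs lack a poly(A) tail, and 11 of the 30 genes reached 1 CPM in untreated cells.

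Of 39 HOX genes, which set position along the body axis, 10 HOXA genes lay in the single bin chr7:27100001-27200000. The bin had 48.8 and 34.8 CPM with DamV133A and 15.6 and 21.8 with the fusion (-1.16 ± 0.46, edgeR adjusted p = 0.0475), against 16.4 and 13.8 with DamWT and 33.8 and 20.7 with DamWT-LMNB1 (0.86 ± 0.47, adjusted p = 0.313). The 2 variants thus pointed in opposite directions, and their difference did not pass the test (-2.02 ± 0.66, edgeR adjusted p = 0.113). All 10 HOXA genes reached 1 CPM in untreated cells, HOXA13 at 144 and 142 CPM and HOXA11 at 74.8 and 69.9.

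The 8 MHC genes in chosen bins were of the class II family, part of which presents peptides to helper T cells in immune cells. In untreated cells 3 of the 8 genes reached 1 CPM. Over the 8 genes the mean level in untreated cells ranged from 0 to 13.5 CPM, with a median of 0.667. HLA-DMA lay at 0.730 and 0.689 CPM, HLA-DMB at 1.87 and 1.68 and HLA-DOB at 0.497 and 0.751. Of their 5 bins, 4 fell with DamV133A (-1.14 to -3.65) and chr6:32700001-32800000 (HLA-DQA2 and HLA-DQB2) had -1.53 (edgeR adjusted p = 0.0605). This is near the 79.4% of all chosen bins called lower. The same bins also hold PSMB8, PSMB9 and BRD2, which encodes a reader of acetylated histones. Of 387 olfactory receptor genes 1 lay in a chosen bin, OR4F3, which has near-identical copies elsewhere and whose placement is uncertain. Chosen bins held 0 of 22 PSG and CEACAM genes, 16 kallikreins, 94 keratin-associated proteins, 24 bitter taste receptors and 53 clustered protocadherins. They also held 0 of 16 GABA-A receptors and 10 type 2 UDP-glucuronosyltransferases, and 21 of 497 ZNF genes (4.23%). Of all placed genes 7.36% lay in these bins, so 0 is near that share in the smaller families. Bins contacted in 3 to 10 cells held 93.8% of the kallikreins, 72.7% of PSG and CEACAM and 54.3% of keratin-associated genes. That class held 54.6% of all placed genes, and 12.5% or less of each other family with 0.

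RNA was compared between cells with DamV133A-LMNB1 and cells with DamV133A, with edgeR's quasi-likelihood test over 8 libraries. Of 1245 genes of the chosen bins tested, 221 rose (17.8%, background 12.7%) and 96 fell (7.71%, background 7.55%). In bins contacted in 3 to 10 cells 16.9% rose and 8.21% fell, so the chosen bins lay near their closest class. The median log2 fold change was 0.03 in the chosen bins and -0.02 over all genes. The balance of directions depended on the scaling: with library totals alone 145 rose and 199 fell. Over all 17740 genes 1458 then rose and 2363 fell, against 2258 and 1340 in the main fit, and the median moved to -0.10. Without DamV133A library 1 or 2 almost all calls were lost, over all genes as well as in the chosen bins. More genes were called in both sets without DamV133A-LMNB1 library 1 or 2. The medians in the chosen bins were 0.0281 and 0.0343 without DamV133A library 1 or 2. They were 0.0468 and 0.0175 without DamV133A-LMNB1 library 1 or 2. The 2 DamV133A-LMNB1 libraries differed from each other by a median of 0.154 on the log2(CPM + 1) scale over these genes, against 0.0430 to 0.0468 in the other 3 groups.

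Among the genes that fell with the smallest adjusted p (edgeR adjusted p = 0.018 for each gene in this paragraph and the next), EGR1, an immediate early transcription factor, had TMM-scaled levels of 49.6 and 51.0 CPM with DamV133A and 36.2 and 34.5 with the fusion. SON, a nuclear speckle protein, had 611 and 618 CPM and 453 and 358. PAXBP1 had 109 in both libraries and 86.6 and 76.5, and ECHDC2, a mitochondrial hydratase-like protein, 13.6 in both and 8.51 and 6.65. The DamV133A and fusion groups did not overlap for any of them. In untreated cells SON had 480 and 482 CPM, PAXBP1 86.7 and 87.2 and ECHDC2 11.6 and 11.5. In SON, PAXBP1 and ECHDC2 the untreated libraries thus lay below both DamV133A libraries and above both fusion libraries. In PAXBP1 the margin to the fusion was narrow (86.7 against 86.6). The fusion was not tested against untreated cells. EGR1 had 48.0 and 50.3 CPM in untreated cells, which overlapped its DamV133A levels. SPDYE2 (3.94 and 4.39, then 2.17 and 1.77) has near-identical copies and is uncertain.

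Among those that rose, the growth factor gene MDK had 107 and 109 CPM with DamV133A, 155 and 200 with the fusion and 162 and 160 in untreated cells. PSMB1 went from 180 and 179 to 233 and 279, with 214 and 218 in untreated cells. NDUFB10, a subunit of respiratory complex I, went from 141 and 137 to 187 and 233, with 197 and 189 untreated. NPM3, a nucleolar protein, went from 73.2 and 69.7 to 97.2 and 122, with 93.9 and 95.4 untreated. The endoplasmic reticulum protein ERP29 went from 78.2 and 78.3 to 102 and 118, with 109 and 110 untreated. In all 5 genes the untreated libraries lay above both DamV133A libraries, so these genes rose relative to DamV133A, and the fusion was not tested against untreated cells. In each the higher fusion library was library 2, and all 10 calls were lost without DamV133A library 1 or 2 (adjusted p = 0.131 and 0.163).

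By family, 7 of 8 cytosolic ribosomal protein genes of the chosen bins rose (median 0.49 on the log2 scale), 6 of 11 tested proteasome genes (0.26) and 3 of 3 genes of NADH dehydrogenase (0.59), and 0 of these fell. Over all genes tested 12.7% rose and 7.55% fell, and the median was -0.02. With library totals alone the counts were 7, 4 and 3, and without DamV133A library 1 or 2 they were 0. RPL27A had 543 and 536 CPM with DamV133A, 639 and 780 with the fusion and 767 and 763 in untreated cells. RPL41 had 894 and 860, 1160 and 1495, and 1359 and 1343 in the same order. Both thus rose from a DamV133A level below that of untreated cells. RPL3L, near 2 CPM, had 2.27 and 2.22 with DamV133A and 2.21 and 1.53 in untreated cells. Of 21 ZNF genes 0 rose and 1 fell, and of 10 HOXA genes 0 were called. With library totals alone 5 ZNF genes were lower and 0 HOXA genes were called, and DESeq2 called 1 HOXA gene lower. Without DamV133A-LMNB1 library 1, 2 ZNF genes were higher and 7 lower, and 5 HOXA genes were higher and 2 lower.

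A few chosen bins stood apart from the rest. The authors' deposited log2 fold change was above 0 in 5 of them: chr2:8500001-8600000, chr3:169500001-169600000, chr9:18400001-18500000, chr14:45100001-45200000 and chr18:11800001-11900000. In the last 2, which hold FANCM, FKBP3 and PRPF39 and hold CHMP1B and MPPE1, a single DpnI fragment took 56.7% and 66.7% of the untethered counts of the variant libraries, against a median of 9.49% over the chosen bins. The fragment on chromosome 14 had 572 and 333 counts with DamV133A, 695 and 778 with DamV133A-LMNB1, 132 and 47 with DamWT and 528 and 264 with DamWT-LMNB1. For DamV133A the bin on chromosome 14 had a fold change of 0.11 (edgeR adjusted p = 0.721), and that on chromosome 18 fell by 0.89 on the log2 scale (edgeR adjusted p = 0.0177). Another 9 chosen bins had summed coverage under 10000, among them bins of NPIPA, TBC1D3, GOLGA6L and SPDYE genes, families with near-identical copies. The part of read placement in their low counts was not tested. Each of these 9 had at most 9 fragments in the 51 LMNB1 cells together, and 4 of them were not tested in the variant libraries.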

How the data were processed

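The chosen bins and the gene lists were picked with earlier results of these data known. The authors deposited counts of unique fragments in 100 kb bins for each cell (9526 to 348793 per cell) and coverage counts in the same bins for each bulk library (402171358 to 524019579). The sources used here do not give whether bulk coverage counts reads or fragments. The same deposited table holds the authors' log2 fold change and their marks of control bins. Variant libraries were deposited as counts per DpnI fragment (7180359 fragments, 3162041 to 10666805 counts per library), and for RNA estimated counts per gene (39690885 to 51455298 per library, 39037 genes), which were rounded to whole numbers for testing. The submitters' processing notes name the build hg38 and, without their roles, Salmon, limma, DESeq2, bedtools 2.28, SAMtools 1.9, BWA 0.7.15-r1140 and Trimmomatic 0.39.

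Each of these values was used as deposited. Contact was computed from the 51 LMNB1 cells and the 2 untethered bulk libraries. Fragments of the variant table were summed per bin by midpoint, which left out 0.0201% of the counts. Genes were placed by midpoint of their span in the RefSeq annotation GRCh38.p14: 18973 protein-coding genes were placed, 153 others on non-primary sequences were left out, and 18336 (96.6%) were matched to RNA. Tests used edgeR 4.0.16 under R 4.3.3 (filterByExpr, TMM, glmQLFit, glmQLFTest), 1 fit per table over 8 libraries, with Benjamini-Hochberg adjusted p under 0.05. On simulated data with a known 2-fold change, the variant test recovered 97% of changed bins with 4.43% of calls false (28488 bins). The RNA test recovered 97.5% of changed genes with 5.8% false (15621 genes). In the real libraries, wild-type changes near 2-fold could fail the test. The bins chr1:229500001-229600000 and chr3:15000001-15100000 had -0.98 ± 0.47 and -0.96 ± 0.40 on the log2 scale (edgeR adjusted p = 0.251 and 0.191). The simulated recovery thus does not give the power of the variant test here. DESeq2 1.42.0, other scalings, no filter, a replicate block and leaving out each library were the alternatives. Python 3.11.15 with numpy 2.4.6, pandas 2.3.3 and matplotlib 3.10.9 did the rest.

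Replicate numbers did not pair libraries: deviations of same-numbered libraries correlated between -0.0811 and 0.0327. No 2 columns of values were identical. Named items followed 1 rule: the 6 longest runs with their 4 genes of highest CPM, the 5 best covered bins without contact, the 3 bins per direction with the smallest adjusted p, the 10 genes of highest CPM, 5 genes per direction in the RNA test, and the first 3 symbols of each gene list. The HLA, HOXA, histone and proteasome bins and the bins that stood apart were described after their values were seen. The precision of each value is limited by counts per bin and by 2 libraries a group. The level of 1 gene of the marker list is not reported here.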

Additional observations from a re-analysis of the deposited data

Results flagged for a closer look

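In 13 of the 820 chosen bins tested, fusing Dam to LMNB1 changed the counts more strongly with DamV133A than with wild-type Dam, each time downward, by the interaction term of the edgeR fit. These were 1.59% of the chosen bins, against 0.358% of all bins tested. The share called lower was 1.02% in bins contacted in 3 to 10 cells and 1.58% in those contacted in 3. In that class 0 were called higher, against 0.136% of all bins, so the pattern was not particular to the chosen bins. The bins were chosen with untethered DamV133A and without wild-type Dam, and the part of this choice was not tested. Among the bins named, the interaction was -4.29 on the log2 scale in chr20:38000001-38100000 (RPRD1B and TTI1), -4.14 in chr1:24300001-24400000 (GRHL3 and STPG1), -3.14 in chr1:28700001-28800000 (YTHDF2, inside the longest run), -2.57 in chr1:31000001-31100000 and -2.51 in chr7:151600001-151700000, each with an adjusted p of 0.0449. In chr1:24300001-24400000 the 2 libraries had 46.0 and 29.4 CPM with DamV133A, 2.90 and 2.55 with DamV133A-LMNB1, 24.5 and 20.7 with DamWT and 36.2 and 21.5 with DamWT-LMNB1. In chr1:28700001-28800000 the values were 56.9 and 49.8, 4.66 and 4.30, 41.1 and 39.5, and 41.6 and 17.7 CPM in the same order. All 5 kept their sign under every alternative run, and all 5 lost the call without either DamV133A library, without either DamWT library, without DamWT-LMNB1 library 1 and with a replicate block. With covered DpnI fragments in place of counts, chr20:38000001-38100000 and chr1:28700001-28800000 also lost it (adjusted p = 0.239 and 0.111).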

How the results depend on the processing

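The number of chosen bins moved with the rule: 299 at contact in at most 1 cell, 1588 at most 3 cells and 3947 with contact at a ratio of 1.5. It was 817 at coverage of 5000 or more, 791 or 912 with 1 untethered library as the expected profile (665 and 750 of them among the 824), and 936 without the cells under 20000 fragments.

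For DamV133A-LMNB1 against DamV133A, the chosen bins called lower ranged from 404 to 643 when 1 library was left out, and from 633 to 739 under the other alternatives, which include the number of covered DpnI fragments in place of counts (641), an alternative chosen after seeing the data. For wild-type Dam the count was 0 with library totals alone, 80 with DESeq2, 14 with covered fragments and 0 to 49 with 1 library left out. For the interaction it was 34 with library totals alone, 229 with DESeq2, 0 with the replicate block, 55 with covered fragments and 0 to 199 with 1 library left out. For RNA, genes called lower numbered 199 with library totals alone, 183 without a filter, 42 with the replicate block and 0 to 303 with 1 library left out. Genes called higher numbered 145 with library totals alone, 143 with the replicate block and 0 to 456 with 1 library left out. With the block, calls for DamV133A and wild-type Dam were 670 and 1. Same-numbered libraries shared only a number. Calls over all bins and genes also moved with these settings. The interaction was lower in 103 of 28733 bins in the main fit, in 233 with library totals alone and in 0 with the block. DESeq2 called 1884 of 29106 bins lower. For wild-type Dam, 61 of 28733 bins were lower in the main fit, 22 with library totals alone and 41 with the block. For RNA, 1340 of 17740 genes were lower in the main fit, 2363 with library totals alone and 656 with the block. The cause of these shifts was not tested. No named bin or gene reversed a call under any alternative run.

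Depth limits the single cells: with 1.90 to 5.84 expected fragments per bin in a median cell, contact in 2 or 3 cells cannot be told apart for a single bin. With 2 libraries a group, a missed call does not show equal counts. In bulk libraries, fewer cells with contact and less methylation per cell cannot be told apart.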
